A study of Homo sapiens with 4 samples.

Results

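The genes described here encode the machinery that copies DNA in S phase, 51 in number, from the proteins that mark origins to those that reassemble chromatin behind the fork. They were measured on 96 probe sets whose platform annotation names 1 of these genes alone, among 54613 probe sets and 19775 named genes on the array. The cells were M14, an established human melanoma line. Per the labels, M14 was stably transfected with pIRES2 carrying the FLAG-tagged coding region of ARHGAP8 (a variant without exon 5), or with pIRES2 alone. Both plasmids were of the pIRES2-eGFP type, and stable cells were selected in G418 and sorted for eGFP. Each of the lines was grown for 4 days in 3D, embedded in growth factor-reduced Matrigel, or in 2D on plastic coated with bovine collagen and harvested before confluence, with G418 in the medium throughout. The groups were the ARHGAP8-labelled line in 3D, the empty-vector line in 3D, the ARHGAP8-labelled line in 2D and the empty-vector line in 2D, with 1 array each. Only 1 transfected line per plasmid was measured, and the labels name no separate cultures.

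Before a cell can replicate, the origin recognition complex (ORC), CDC6 and CDT1 load the MCM2-7 ring onto DNA in G1 phase, a step called licensing that geminin (GMNN) blocks later in the cycle. The kinase CDC7 and cyclin E with CDK2 then help to recruit CDC45 and the GINS complex, which turn the ring into the active helicase. Polymerase alpha with primase starts each strand, polymerases epsilon and delta extend it on the PCNA clamp, and FEN1 and LIG1 join the lagging-strand pieces. Many of these genes are transcribed by E2F factors when pocket proteins such as RB release them.

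Signal is the linear intensity per probe set as deposited, and ratios are log2 values after setting signals below 72.3, the median of all probe sets, to that floor. A gene was read from its brightest probe set, and signals of different genes are not compared with each other. On these probe sets all 51 genes lay above the floor on all 4 arrays, so none of their ratios is a bound. Other probe sets of E2F1, GINS4 and RFC5 fell below it on some arrays, as stated beside their values. The test was an additive limma model of culture and line over 13239 genes with Benjamini-Hochberg adjustment at 0.05. Its moderated standard error (SE) rests on 1 residual degree of freedom per gene and mostly on other genes of like signal. The p-values set each effect against array noise, differences between the single cultures and any real dependence of culture on line, which cannot be told apart. Variation between separately made lines was not measured, and variation between cultures of the same group was not measured on its own.

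Some facts of the arrays stand beside every result. ARHGAP8 itself gave signals from 4.02 to 14.8 on its 4 probe sets, all below the floor and all annotated to a readthrough gene too, so the labels were not checked by it. The median signal of the 18S ribosomal RNA controls was 626 on the ARHGAP8-labelled 3D array, against 27.7 to 49.4 on the other 3 arrays. The ACTB 3' over 5' signal ratio, a measure of RNA quality, was 1.32 and 1.23 in 3D, against 1.05 and 1.10 in 2D (ARHGAP8-labelled and empty-vector line). For GAPDH these ratios were 0.925 and 0.901 in 3D and 0.899 and 0.874 in 2D. Their part in the results was not tested. Melanocytic markers fixed for this work were present, with 8 of 9 on the array above the floor on at least 2 arrays and PMEL below it on all 4. Their summed signal was 8785 and 9330 in 3D, against 5286 and 8350 in 2D, and 4 of the 8 rose in 3D in limma, MITF by 0.65, MLANA by 1.01, TYR by 0.88 and TYRP1 by 1.47 log2. All 4 leukocyte markers on the array, PTPRC, CD3E, CD14 and LYZ, lay below the floor on all 4 arrays, as did 4 of 6 epithelial and 3 of 6 fibroblast markers. Leukocyte markers summed to signals of 114 and 96.7 in 3D, against 116 and 120 in 2D, and epithelial markers to 694 and 577 in 3D, against 1170 and 974 in 2D. Fibroblast markers summed to 610 and 722 in 3D, against 529 and 655 in 2D. KRT18, an epithelial keratin gene on that list, fell in 3D by 1.13 ± 0.17 log2 (moderated SE, adjusted p 0.00024 in limma), while KRT8, the other one above the floor, had 0.39 ± 0.25 without passing. The part of these markers in the results was not tested.

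Culture in 3D was compared with culture in 2D over both lines. Of the 51 replication genes 14 fell in 3D and 0 rose, where 4.15% of all 13239 tested genes fell and 2.83% rose. The fallen genes spanned 8 of 9 roles, though CDC6, RFC4, FEN1, UHRF1 and CCNE2 were each the only fallen gene of their role. A count of 1 in roles this small is too few to set against the share over all tested genes. RFC4 and FEN1 did not pass after quantile normalization or without the intensity trend in limma. At least 2-fold lower on average were UHRF1, CCNE2, GINS2, GINS4, CDC6, CDC45 and MCM10. Another 14 genes had an unadjusted p under 0.05 in limma without passing, and 23 had neither. With the fallen genes, 28 of the 51 had such a p, where 2778 of all 13239 tested genes had one. The median log2 ratio over the 51 genes was -0.36 in the ARHGAP8-labelled line and -0.56 in the empty-vector line, where that of all tested genes was 0.04 and 0.01. In bulk RNA, fewer cells in S phase and less of each transcript per cell cannot be told apart.

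The direction was shared more widely than the calls. For 36 of the 51 genes both 3D signals lay below both 2D signals, and for 0 they lay above. Among the 11201 genes above the floor on all 4 arrays, 24.4% were separated downwards and 26.6% upwards. The 15 genes whose signals overlapped between the cultures were ORC3, ORC6, CDT1, MCM7, PRIM2, POLD1, POLD3, RFC1, RFC5, LIG1, RPA2, RPA3, CHAF1A, CCNE1 and E2F2. Lower in 3D were 41 of 51 genes in the ARHGAP8-labelled line, where the share over the 11201 genes was 48.3%, and 47 of 51 in the empty-vector line, where it was 49.3%. At least 2-fold lower were 4 genes in the ARHGAP8-labelled line (background 1.96%) and 7 in the empty-vector line (background 1.29%). CDC6, UHRF1 and CCNE2 met that size in both. At least 2-fold higher were 0 genes in the ARHGAP8-labelled line (background 1.81%) and 0 in the empty-vector line (background 1.73%). Both lines were lower in 3D for 37 genes, where the share over the 11201 genes was 31.2%.

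These calls rest on 1 probe set per gene. When a gene's value was the mean of all its probe sets, limma called 0 of the 51 genes and 37 genes in all, 25 of them higher and 12 lower in 3D. UHRF1, CDC45, MCM2, MCM3, POLA1 and RFC4 have 1 probe set each, so their ratios were the same under that setting. They did not pass there either, so their loss does not come from other probe sets that disagree. The prior degrees of freedom in limma were 4.34 there, against 19.4 with the brightest probe set. Under that setting 29 of the 51 had an unadjusted p under 0.05, where 2418 of all 13285 tested genes had one. Lower in 3D in both lines were 41 of the 51, against 37 with the brightest probe set. The share over all genes was not counted for that setting.

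**Figure D1:**
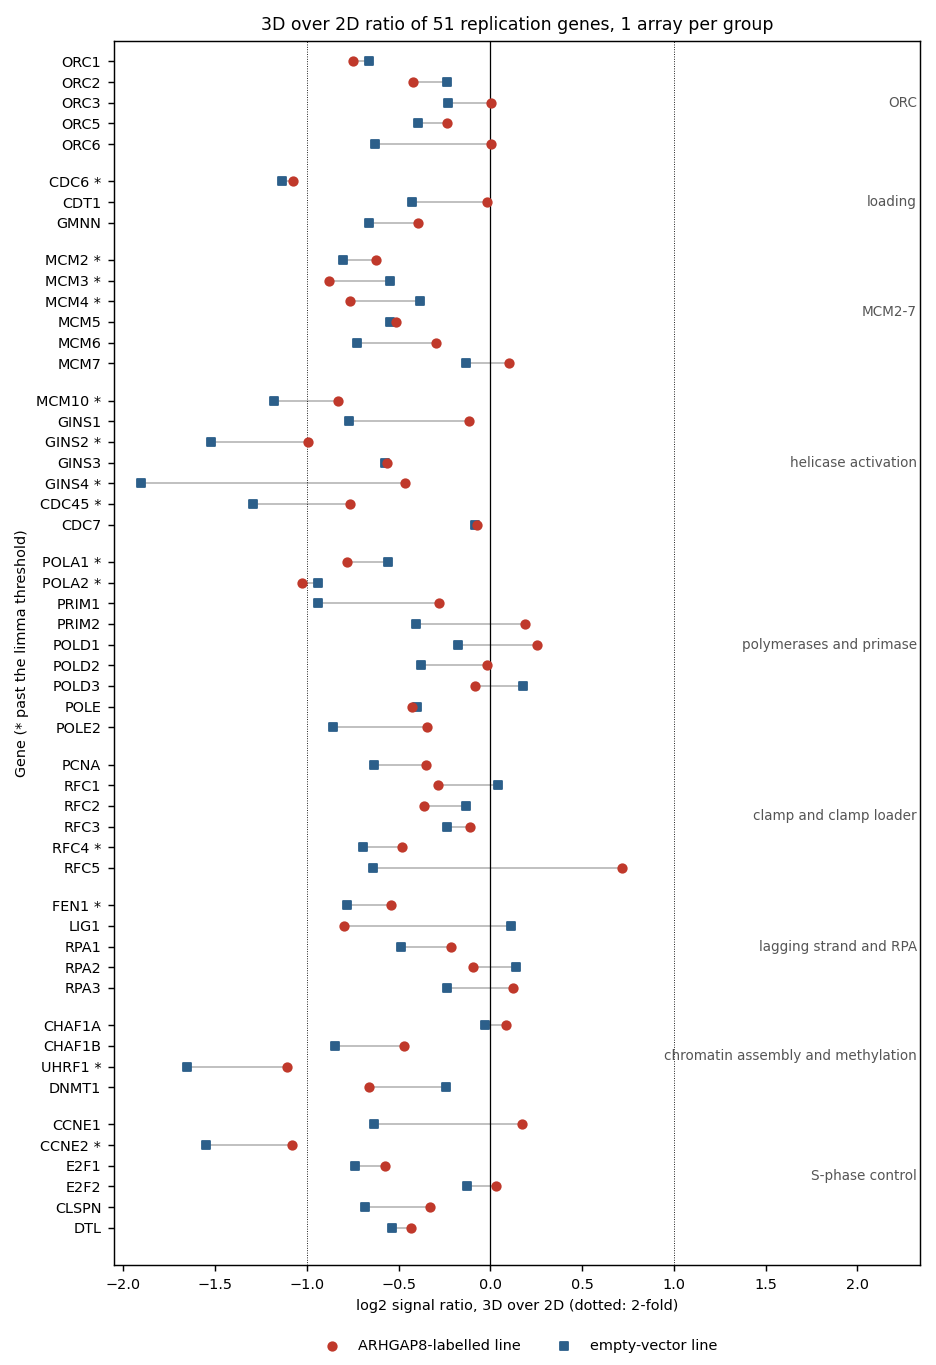
Log2 ratio of signal in 3D over 2D for each of the 51 genes, ordered by role, in the ARHGAP8-labelled line (circles) and the empty-vector line (squares), 1 array per group, with asterisks on the 14 genes past the limma threshold. Most pairs lie left of 0, all of helicase activation among them, while RFC5 and LIG1 have their circle and square on opposite sides far apart.

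The promoters of these genes were searched for E2F motifs. RefSeq promoter windows (GRCh38.p14) ran from 250 bases before to 50 after an annotated start, with 1 window per gene. They were on hand for 44 of the 51 genes, and MCM4, MCM5, GINS4, POLD3, RPA2, RPA3 and CCNE2 had no entry. For UHRF1, ORC1, MCM7, POLD2, PRIM2 and PCNA that start lay inside the gene's outer bounds, not at their edge. The letters TTTCCCGC, TTTGGCGC, TTTCGCGC and TTTGCCGC were searched on both strands. At least 1 was found in 21 of the 44 windows (47.7%), against 894 of 27305 windows in the table (3.27%). The members' windows were richer in G and C, with a median of 65.7% against 58.0%, and among the 8216 windows at or above 65.7% the motif share was 4.98%. Of the 11 fallen genes with a window 7 held a match, and of the other 33 genes 14 did. CCAAT was found in 24 of 44 windows (54.5%, against 35.6% of all) and the CHR motifs TTTGAA or TTCGAA in 1 of 44 (2.27%, against 16.8%), a gene that did not pass. For CCAAT and CHR no share among windows of like G and C content was counted, so the part of base composition is not known. A match is a run of letters in these windows, not a site shown to be bound.

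Stretches from 180 bases to 1 base before the annotated start are shown for 5 fallen genes with a match there and for MCM6 and E2F1, which did not pass. That of UHRF1 lies inside the gene's outer bounds. The E2F letters are in capitals, on whichever strand they lie. The stretches are at chr19:4909321-4909500 for UHRF1 on the plus strand, chr16:85688955-85689134 for GINS2 on the minus strand, chr11:65261782-65261961 for POLA2 on the plus strand and chrX:24693738-24693917 for POLA1 on the plus strand. Those of MCM3, MCM6 and E2F1 are on the minus strand at chr6:52284743-52284922, chr2:135876444-135876623 and chr20:33686386-33686565. The capitals at the end of MCM3 are the first letters of a second match that runs past the start, and in MCM6 each run of capitals holds a pair of overlapping matches.
UHRF1: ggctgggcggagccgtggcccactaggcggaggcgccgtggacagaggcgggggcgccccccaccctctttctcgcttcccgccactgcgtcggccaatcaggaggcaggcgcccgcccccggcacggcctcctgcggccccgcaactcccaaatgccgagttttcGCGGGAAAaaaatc
GINS2: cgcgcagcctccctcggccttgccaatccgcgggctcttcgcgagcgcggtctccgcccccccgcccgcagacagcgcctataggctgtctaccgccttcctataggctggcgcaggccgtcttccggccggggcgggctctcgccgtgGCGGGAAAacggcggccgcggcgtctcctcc
POLA2: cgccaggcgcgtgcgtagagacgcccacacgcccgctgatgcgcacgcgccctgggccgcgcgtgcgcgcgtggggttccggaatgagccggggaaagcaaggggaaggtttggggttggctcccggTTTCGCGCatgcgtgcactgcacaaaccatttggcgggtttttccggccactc
POLA1: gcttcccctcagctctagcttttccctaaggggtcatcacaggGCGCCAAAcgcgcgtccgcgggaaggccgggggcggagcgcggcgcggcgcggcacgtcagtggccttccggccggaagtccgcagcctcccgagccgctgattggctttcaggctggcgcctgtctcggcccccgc
MCM3: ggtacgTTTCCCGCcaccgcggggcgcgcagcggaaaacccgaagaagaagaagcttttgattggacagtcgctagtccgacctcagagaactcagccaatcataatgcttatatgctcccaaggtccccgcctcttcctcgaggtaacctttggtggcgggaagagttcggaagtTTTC
MCM6: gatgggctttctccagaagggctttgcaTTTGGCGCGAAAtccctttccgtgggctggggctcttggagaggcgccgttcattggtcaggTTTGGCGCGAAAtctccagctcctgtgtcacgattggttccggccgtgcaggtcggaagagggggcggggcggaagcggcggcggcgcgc
E2F1: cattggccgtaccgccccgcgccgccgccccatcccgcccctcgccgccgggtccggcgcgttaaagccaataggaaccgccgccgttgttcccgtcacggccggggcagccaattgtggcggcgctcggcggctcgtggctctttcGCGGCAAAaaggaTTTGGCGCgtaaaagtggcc

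In CDC6 and MCM2 the match lies just after the start, and 28 bases around it are shown, at chr17:40287876-40287903 and chr3:127598405-127598432, both on the plus strand. The MCM2 capitals are a pair of overlapping matches, 1 on each strand.
CDC6: gccattcggaTTTGGCGCgagcgcggct
MCM2: gaaccactTTTCGCGCGAAAcctggttg

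Among the 5 genes of the origin recognition complex none passed in limma. An unadjusted p under 0.05 was reached by 1 gene, a share near that over all tested genes (2778 of 13239). That gene was ORC1, the subunit that rises and falls with the cell cycle in human cells. It gave signals of 80.0 and 75.1 in 3D, against 134 and 119 in 2D (ARHGAP8-labelled, then empty-vector line), so both 3D signals sat close to the floor. Its log2 ratio was -0.71 ± 0.23 (moderated SE, adjusted p 0.0741 in limma). ORC2, ORC5 and ORC6 had ratios of -0.33, -0.32 and -0.31, and ORC3 had -0.11. The 2D signals of ORC6 were 565 and 563, and the 3D signals were 567 in the ARHGAP8-labelled line and 364 in the empty-vector line. The other probe set of ORC2 read 0.12, opposite to the one used.

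CDC6, the ATPase that loads the MCM ring together with CDT1, fell 2.15-fold. Its signals were 233 and 229 in 3D, against 492 and 502 in 2D. The lines were almost alike within each culture, and the 3D and 2D signals lay far apart. The log2 ratio was -1.11 ± 0.19 (moderated SE, adjusted p 0.0011 in limma), and its other probe set read -0.99. CDT1, the partner of CDC6, did not pass, with a ratio of -0.23 ± 0.22 (adjusted p 0.612 in limma). GMNN, which holds CDT1 inactive after licensing, had 849 and 630 in 3D, against 1116 and 995 in 2D. Its ratio of -0.53 ± 0.16 missed the threshold narrowly, with an adjusted p of 0.0503 in limma.

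The 6 subunits of the MCM2-7 ring divided into 3 that fell and 3 that did not pass. MCM2 had signals of 941 and 926 in 3D, against 1448 and 1619 in 2D. It fell by 0.71 ± 0.16 log2 (adjusted p 0.00776 in limma). MCM3 had 647 and 880 in 3D, against 1191 and 1285 in 2D, the ARHGAP8-labelled 3D array being the lowest. It fell by 0.71 ± 0.16 log2 too (adjusted p 0.00899 in limma). MCM4 had 657 and 753 in 3D, against 1115 and 984 in 2D, and fell by 0.57 ± 0.16 log2 (adjusted p 0.0363 in limma). Its 3 other probe sets above the floor read -0.82, -0.56 and -1.09. MCM5 and MCM6 had ratios of -0.53 and -0.51 without passing, and in both genes the 3D signals lay below those in 2D. MCM7 stood nearest to 0 of all 51 genes, with 933 and 998 in 3D, against 869 and 1094 in 2D. Those signals overlapped, for a ratio of -0.01 ± 0.16, although its other probe set read -0.39.

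Of the 7 helicase activation genes 4 fell in limma. Their median ratio was -0.57 in the ARHGAP8-labelled line, the same to this precision as for MCM2-7, and -1.18 in the empty-vector line. GINS2 and GINS4 are subunits of the GINS complex, which joins CDC45 and MCM2-7 at the fork. GINS2 had signals of 188 and 139 in 3D, against 374 and 400 in 2D, and fell by 1.26 ± 0.22 log2 (adjusted p 0.00137 in limma). Its other probe set above the floor read 0.12. GINS4 had 309 and 118 in 3D, against 427 and 443 in 2D. The empty-vector 3D array was by far the lowest, and the fall was 1.19 ± 0.26 log2 (adjusted p 0.00702 in limma). Of its 3 other probe sets, those above the floor on all 4 arrays read -0.84 and -0.44. The third was at 58.4 in the ARHGAP8-labelled line in 3D, below the floor, and its -0.54 is a bound on the fall. CDC45, the helicase partner of GINS, had 143 and 122 in 3D, against 243 and 298 in 2D, and fell by 1.03 ± 0.25 log2 (adjusted p 0.0128 in limma). MCM10, which helps to start the helicase, had 340 and 277 in 3D, against 603 and 627 in 2D. It fell by 1.00 ± 0.18 log2 (adjusted p 0.00154 in limma), but its other probe sets read -0.33 and 0.25. GINS1 and GINS3 had ratios of -0.44 and -0.57 without passing. CDC7, the kinase that triggers origin firing, had -0.08, with signals of 453 and 443 in 3D and 476 and 468 in 2D.

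**Figure D2:**
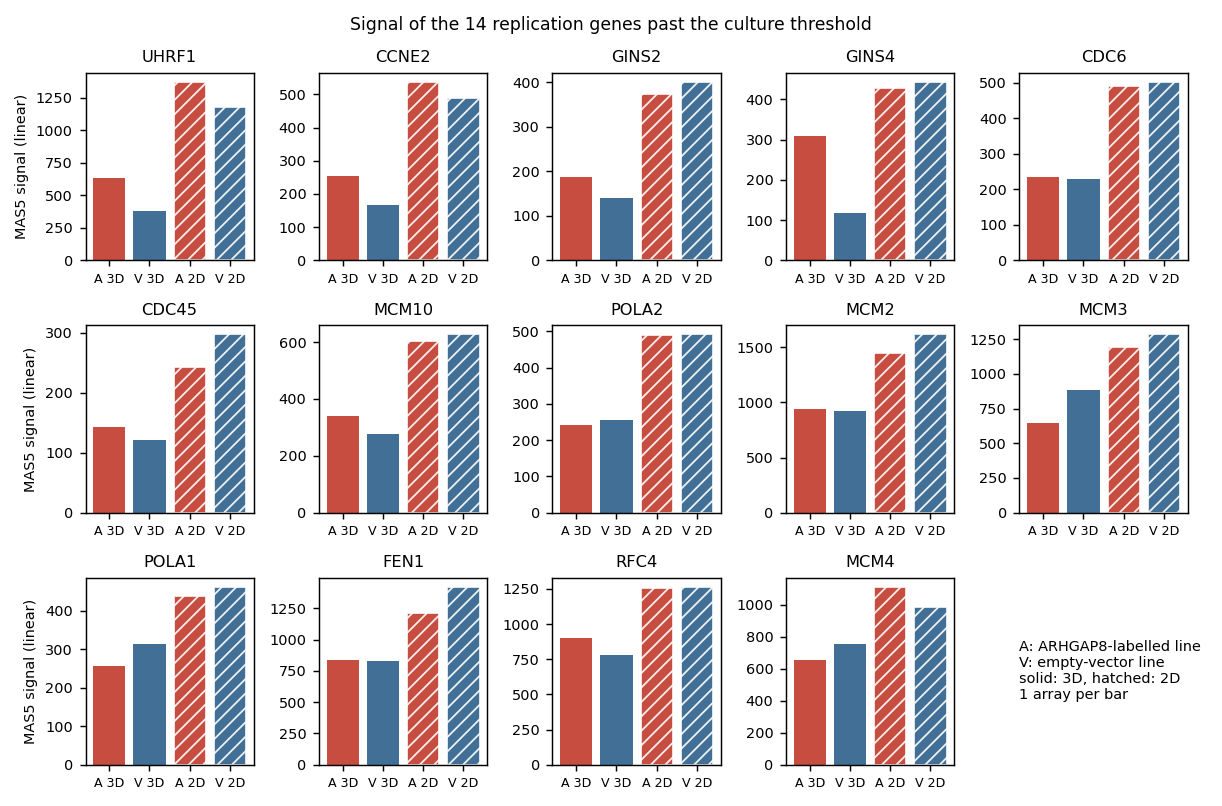
Linear MAS5 signal on each of the 4 arrays for the 14 genes past the culture threshold, 1 bar per array (A, ARHGAP8-labelled line; V, empty-vector line; solid bars 3D, hatched bars 2D), with an axis from 0 in each panel. In every panel both 3D bars are shorter than both 2D bars, and in GINS4 the empty-vector 3D bar is 118, against 309 for the ARHGAP8-labelled line.

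Of the 9 polymerase and primase genes 2 fell, both of polymerase alpha. POLA2, its accessory subunit, had 241 and 256 in 3D, against 490 and 492 in 2D, the lines again being close within each culture. It fell by 0.98 ± 0.19 log2 (adjusted p 0.00281 in limma), while its other probe set above the floor on at least 2 arrays read -0.06. POLA1, the catalytic subunit, had 256 and 315 in 3D, against 440 and 463 in 2D, and fell by 0.67 ± 0.19 log2 (adjusted p 0.0359 in limma). The primase genes PRIM1 and PRIM2, whose product makes the RNA primer, had ratios of -0.61 and -0.11. PRIM2 has a near-identical pseudogene copy that 4 further probe sets name along with it, so its value is uncertain. In polymerase epsilon POLE2 had -0.60 and POLE -0.41. The delta subunits POLD1, POLD2 and POLD3 had 0.04, -0.20 and 0.05, and POLD1 gave 395 and 347 in 3D, against 332 and 391 in 2D, an overlap of the cultures.

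In the clamp and clamp loader 1 of 6 genes fell. RFC4, a loader subunit, had 898 and 782 in 3D, against 1256 and 1266 in 2D, and fell by 0.59 ± 0.16 log2 (adjusted p 0.0264 in limma). PCNA, the clamp, had 1432 and 1370 in 3D, against 1828 and 2127 in 2D. The groups did not overlap, and its ratio of -0.49 ± 0.16 did not pass (adjusted p 0.072 in limma). RFC1, RFC2 and RFC3 had -0.12, -0.25 and -0.17. RFC5 had 916 in the ARHGAP8-labelled line and 316 in the empty-vector line in 3D, and 558 and 492 in 2D, so its mean ratio of 0.04 joins opposite changes. Its next probe set read -0.46. On another both 3D signals lay below the floor, the higher at 21.8 in the empty-vector line, against 181 and 126 in 2D, so that its -1.06 is a bound on a fall.

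FEN1, the flap nuclease of Okazaki fragment processing, was the 1 gene of 5 that fell among the lagging-strand and RPA genes. Its signals were 835 and 829 in 3D, against 1216 and 1425 in 2D, a fall of 0.66 ± 0.16 log2 (adjusted p 0.0131 in limma), and its other probe set read -0.60. LIG1, the ligase that seals the fragments, had 149 and 223 in 3D, against 259 and 206 in 2D, which overlapped. The single-strand binding subunits RPA1, RPA2 and RPA3 had -0.35, 0.02 and -0.05. RPA2 was nearly level, with 1003 and 995 in 3D, against 1069 and 902 in 2D.

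UHRF1, which brings the methyltransferase DNMT1 to newly copied DNA, had the lowest ratio of the 51 genes. Its signals were 637 and 376 in 3D, against 1372 and 1182 in 2D, a fall of 1.38 ± 0.17 log2 or 2.60-fold (adjusted p 2.92e-05 in limma). DNMT1 itself had 711 and 798 in 3D, against 1124 and 943 in 2D. The cultures were separated, and the ratio was -0.45 ± 0.16 (adjusted p 0.108 in limma). Of the chromatin assembly factor subunits, CHAF1B had -0.66 and CHAF1A 0.03, both without passing. CHAF1A gave 308 and 245 in 3D, against 290 and 250 in 2D, while its other probe sets above the floor read -0.76 and -0.88.

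Among 6 genes of S-phase control CCNE2 fell and its paralog CCNE1 did not pass, although both encode E-type cyclins that activate CDK2. CCNE2 had 253 and 167 in 3D, against 537 and 489 in 2D, a fall of 1.32 ± 0.20 log2 or 2.49-fold (adjusted p 0.000324 in limma), and its other probe set read -0.76. CCNE1 had 301 and 185 in 3D, against 266 and 287 in 2D, which overlapped. Its ratio was -0.23 ± 0.23, and the difference between the cyclins was not tested. E2F1, an activator of replication genes, had 139 and 131 in 3D, against 207 and 218 in 2D. Its ratio of -0.66 ± 0.24 did not pass (adjusted p 0.119 in limma), and its other probe set, below the floor in 3D at 40.4 and 45.4, gave -0.95 as a bound on the fall. E2F2 had -0.05, with -0.64 on its other probe set above the floor on at least 2 arrays. CLSPN, an adaptor of the replication checkpoint, and DTL, which targets CDT1 for destruction, had -0.51 and -0.48.

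Probe sets of the same gene were a check that the choice of the brightest left unused. Of the 96 probe sets 86 were above the floor on at least 2 arrays, and 75 of these had a mean ratio below 0. The 86 include the brightest probe set of each gene, already used above, and only 35 are others. The 75 are therefore not a count from unused probe sets alone, and the share over all probe sets of the array was not counted. Of the 14 fallen genes 8 had another probe set above the floor on at least 2 arrays, 13 in all, of which 11 read below 0 and 2 above. Those 2 belong to GINS2 and MCM10. Where the probes lie on the transcripts was not analysed here.

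**Figure D3:**
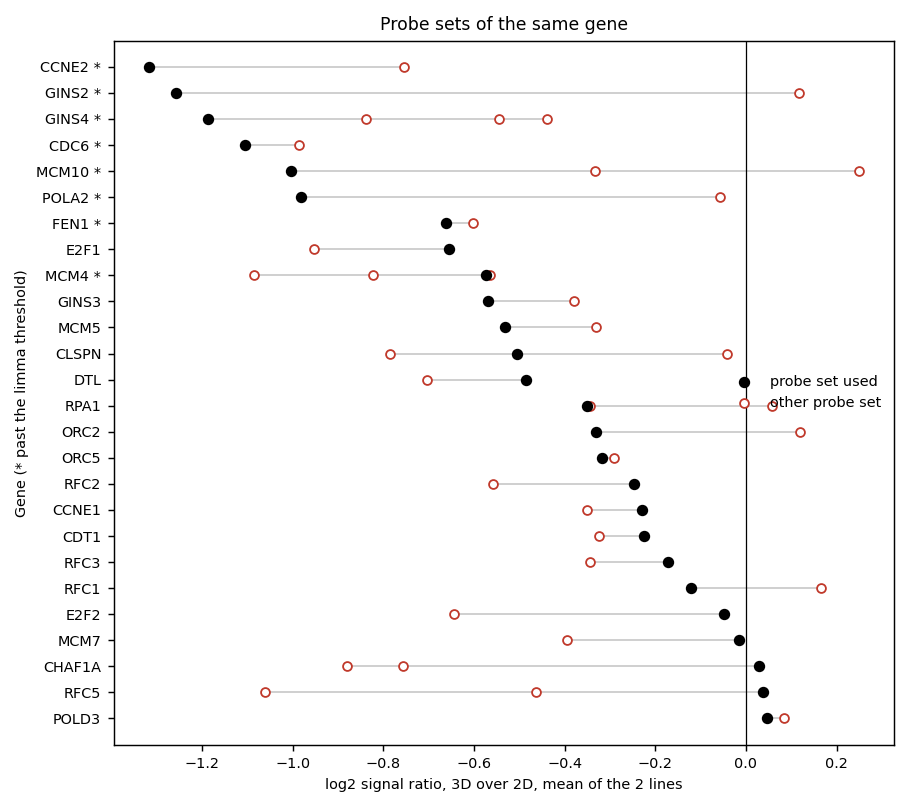
Log2 ratio of signal in 3D over 2D, as the mean of the lines, for each probe set above the floor on at least 2 arrays, in the 26 genes with several such probe sets (filled, the probe set used; open, the others; asterisks, past the limma threshold). Open circles right of 0 appear for GINS2 and MCM10 among fallen genes, while RFC5 and CHAF1A have open circles far left of their filled one. The leftmost RFC5 circle, the open circle of E2F1 and the GINS4 one at -0.54 are bounds, with a 3D signal below the floor.

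Other genes of the same processes were taken from lists fixed for this work. Like the replication genes, these lists were chosen with earlier results of these data known. Their counts are therefore not an independent check of the result above. Of 35 further fork and origin genes, all tested, 10 fell in 3D and 0 rose, with a median of -0.38, where 4.15% of all tested genes fell and 2.83% rose. The histone chaperone genes ASF1A and ASF1B fell by 1.07 ± 0.23 and 0.72 ± 0.17 log2, TIMELESS of the fork protection complex by 0.79 ± 0.22 and the helicase gene RECQL4 by 0.77 ± 0.20. MCMBP, POLE3, RFWD3, TOP1, SSRP1 and CDCA7 fell too. Among 24 genes of E2F, pocket protein and S-phase kinase control, 22 were tested, 4 fell and 1 rose, with a median of -0.13. SKP2, which targets the inhibitor p27 for destruction, fell by 0.96 ± 0.18 log2, RBL1, the pocket protein p107, by 0.79 ± 0.20, E2F3 by 0.64 ± 0.18 and the E2F partner TFDP1 by 0.58 ± 0.16. RBL2, the pocket protein p130 that binds E2F4 in resting cells, rose by 0.87 ± 0.17 log2 (adjusted p 0.00322 in limma). RB1 had 0.01, and the CDK inhibitor genes CDKN1A and CDKN1B had 0.66 and 0.27 without passing. Of 12 S-phase checkpoint genes 8 were tested, 1 fell and 0 rose, with a median of -0.13. The 1 gene rising among 22 and the 1 falling among 8 are counts near what the shares over all tested genes give. The fallen checkpoint gene was CHEK1, a checkpoint kinase gene, by 0.65 ± 0.19 log2.

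The ARHGAP8-labelled line was then set against the empty-vector line over both cultures. None of the 51 genes passed in limma, where 0.128% of all tested genes did. At an unadjusted p under 0.05 were 7 genes, all higher in the ARHGAP8-labelled line, where 8.14% of all tested genes met it in either direction. They were RFC5, PRIM2, UHRF1, ORC3, GINS4, GINS1 and RPA3. RFC5 had the lowest adjusted p of the 51, 0.163, with a log2 ratio of 0.86 ± 0.23 (moderated SE). With 1 line per plasmid, line and plasmid cannot be told apart.

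The 5 genes with the largest mean ratio in size were RFC5, GINS4, ORC3, PRIM2 and UHRF1, and most of their difference lay in 3D except in ORC3. ORC3, a subunit of the origin recognition complex, had 278 in the ARHGAP8-labelled line against 164 in the empty-vector line in 3D, and 278 against 193 in 2D. Its ratios were 0.76 and 0.53, and the mean was 0.64 ± 0.23 (adjusted p 0.368 in limma). PRIM2 had 606 against 342 in 3D and 533 against 452 in 2D. UHRF1, at 637 against 376 in 3D and 1372 against 1182 in 2D, had ratios of 0.76 and 0.21. Over the 51 genes both ARHGAP8-labelled signals lay above both empty-vector signals for 8 and below them for 3, where the shares over 11201 genes were 12.6% and 14.2%.

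By culture, the ratio between the lines was above 0 for 37 of 51 genes in 3D (50.1% of 11201 genes) and for 22 of 51 in 2D (49.3%). The median ratio was 0.09 in 3D and -0.03 in 2D, where that of all tested genes was 0.00 in both. At least 2-fold higher were RFC5 and GINS4 in 3D (background 1.11%) and 0 genes in 2D (background 0.227%). Both rest on the brightest probe set, and with the mean of probe sets 0 genes met that size in 3D. The RFC5 ratio in 3D was 1.54, against 0.49 on its next probe set. Other GINS4 probe sets above the floor on all 4 arrays had 0.34 and -0.10. At least 2-fold lower were 0 genes in 3D (background 1.33%) and 0 in 2D (background 0.234%). The 3D ratio uses the array with a median 18S control signal of 626, whose part in it was not tested.

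**Figure D4:**
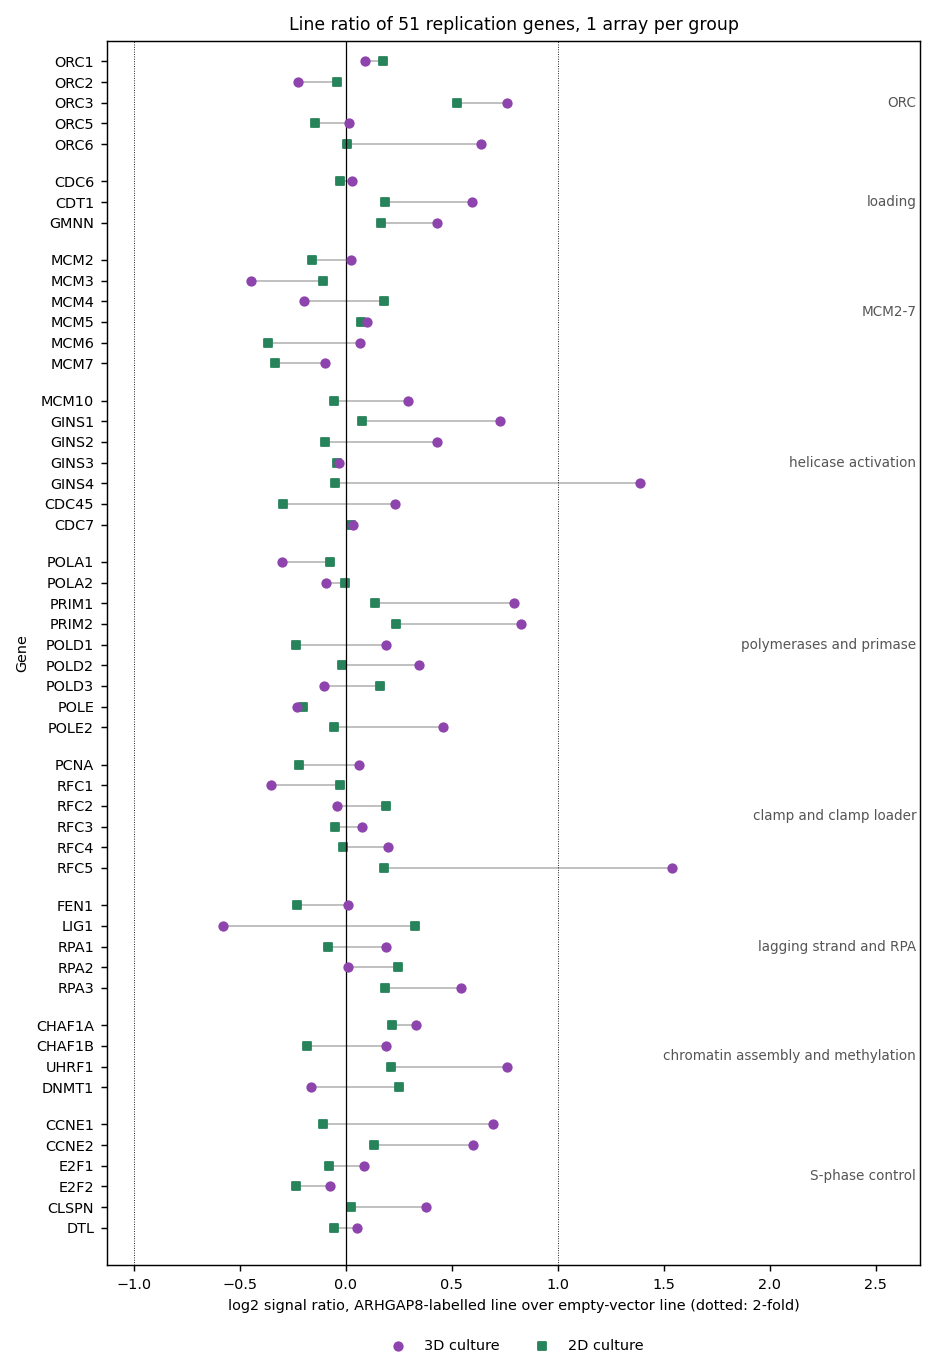
Log2 ratio of signal in the ARHGAP8-labelled line over the empty-vector line for each of the 51 genes, ordered by role, in 3D (circles) and 2D (squares), 1 array per group. The squares stay within 0.53 of 0, while circles of 37 genes lie right of 0 and those of RFC5 and GINS4 pass 2-fold.

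Whether the culture difference depended on the line could not be tested with single arrays, so values alone are given. The 3D over 2D ratio was greater, in most cases less negative, in the ARHGAP8-labelled line for 38 of 51 genes (49.8% of 11201 genes), with a median difference of 0.23 on the log2 scale. All 3 of CDC6, CDT1 and GMNN, all 7 helicase activation genes and all 6 of S-phase control were among the 38. For GINS3 and CDC7 the difference was only 0.01. Every difference uses the ARHGAP8-labelled 3D array, with its median 18S control signal of 626, whose part was not tested. The differences were largest in size for GINS4 (1.44), RFC5 (1.36), LIG1 (-0.91), CCNE1 (0.81) and PRIM1 (0.66). GINS4 had 3D over 2D ratios of -0.47 in the ARHGAP8-labelled line and -1.91 in the empty-vector line, but its brightest probe set stood alone. On its other probe sets above the floor on all 4 arrays, the ratios between the lines in 3D were 0.34 and -0.10. RFC5 had 0.72 in the ARHGAP8-labelled line and -0.64 in the empty-vector line, and its next probe set read -0.27 and -0.66. LIG1 went the other way, at -0.80 in the ARHGAP8-labelled line and 0.11 in the empty-vector line. CCNE1 had 0.17 and -0.63, and its other probe set had -0.29 and -0.40. PRIM1 signals were 254 and 146 in 3D and 308 and 280 in 2D, for ratios of -0.28 and -0.94. A difference of at least 1 in size was found in 2 of 51 genes, where the share over the 11201 genes was 3.29%.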

How the data were processed

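Total RNA of 4 cultures, 1 array each, was primed at the poly(A) tail and amplified by repeated in vitro transcription, per the labels' protocols, which weights signals towards transcript 3' ends. The authors deposited linear signal intensities from MAS5 (submitters' processing notes, with no version); detection calls were not used here. The 2% trimmed mean of the deposited intensities was 150.0 on each array. Signals were scaled to a common trimmed mean, floored at 72.3 (median of all non-control probe sets) and log2-transformed. Gene names are those of the platform annotation, and 41037 of 41091 probe sets with 1 symbol were brought up to date by gene identifier in RefSeq; 1801 with several symbols and 11721 with none named no gene. Each gene took its probe set with the highest mean. Genes above the floor on at least 2 arrays (13239) entered limma 3.58.1 in R 4.3.3, an additive model of plasmid and culture with an intensity trend in eBayes, two-sided, also tested on simulated data. The number of arrays limits the precision.

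Members and lists were chosen with earlier results of these data known. Full signals were given for genes past the culture threshold, and for the 5 nearest a culture coefficient of 0, the 5 with the largest difference of differences and the 5 with the largest plasmid coefficient; the further genes given with all 4 signals (ORC1, ORC6, GMNN, CDC7, PCNA, DNMT1, E2F1) were chosen after their values were seen. Alternatives covered scaling (quantile, cyclic loess), floor, filter, probe sets per gene, variance trend and leaving out the ARHGAP8 3D array. Promoter sequences came from RefSeq (GRCh38.p14).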

Additional observations from a re-analysis of the deposited data

Results flagged for a closer look

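On its brightest probe set the 3D over 2D ratio of RFC5 went opposite ways in the ARHGAP8-labelled and empty-vector lines. The difference was 1.36 on the log2 scale and was not tested. Its next probe set was lower in 3D in both lines, at -0.27 and -0.66. The ARHGAP8-labelled over empty-vector ratio of GINS4, also on its brightest probe set, had opposite signs in 3D (1.39) and in 2D (-0.05). That difference of 1.44 was not tested either. Among controls outside the gene comparisons, the median of the 18S ribosomal RNA probe sets was 626 on the ARHGAP8-labelled 3D array, against 27.7 to 49.4 on the others.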

How the results depend on the processing

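Under every alternative run the count of replication genes rising in 3D stayed at 0, and the list medians of 3D over 2D stayed negative, from -0.26 to -0.36 in the ARHGAP8-labelled line and from -0.50 to -0.59 in the empty-vector line. The count falling in limma moved more, from 14 to 9 after quantile normalization, 9 with probe sets whose suffix marks no shared probes (38 genes tested), 8 without the intensity trend and 0 with the mean of probe sets. It was 11 after cyclic loess, 13 with a floor of 36.1 in place of 72.3, 14 without a floor and 17 with genes above the floor on all 4 arrays. With the mean of probe sets the prior degrees of freedom were 4.34, against 19.4. All 9 genes after quantile normalization and all 8 without the trend were among the 14. With unshared probe sets 8 of the 9 were, and E2F1 was gained, read there from its probe set below the floor in 3D. With genes above the floor on all 4 arrays CHAF1B, GMNN and MCM6 were gained. MCM4 was lost under 5 alternatives. With unshared probe sets GINS2 read 0.12 and MCM10 0.25, reversed because other probe sets represent them. With genes above the floor on all 4 arrays 1 gene, RFC5, rose in the ARHGAP8-labelled line. The line median in 3D was 0.19 with unshared probe sets, against 0.09; the spread it was set against is that between the cultures. The cause of these shifts was not tested beyond what each setting's construction shows. Over all tested genes 271 rose and 294 fell after quantile normalization and 213 and 212 without the trend, against 375 and 550. Without the ARHGAP8 3D array no residual degree of freedom is left, and the empty-vector 3D over 2D median of -0.56 and the 2D line median of -0.03 stand as given. The additive model compares 3D with 2D within each line. Beyond that, no replicate block could be fitted, because the labels carry no replicate numbers and each group has 1 array.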
